A study of Mus musculus with 12 samples.

Results

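The 44 genes described here encode the machinery of the G2 phase and of mitosis: cyclin-dependent kinase 1 and its partners, the spindle checkpoint, the chromosomal passenger complex, the kinetochore, mitotic kinesins, spindle proteins and the proteins that condense and separate chromosomes. They were chosen by name, and each was read through every probe set that carries its symbol alone in the platform annotation. That gave 42 genes with 75 probe sets of the 12393 genes on the Affymetrix 430A array, and 43 genes with 99 probe sets of the 18193 genes on the 430 2.0 array. Ccnb1 was not analysed here, since no probe set carried its symbol alone, and Cdca8 was read on 430 2.0 only. The samples are 12 arrays of liver RNA, from adult mice at 10 weeks of age. Fumarylacetoacetate hydrolase, the product of Fah, completes the breakdown of tyrosine; the drug NTBC stops the pathway upstream of it and so protects Fah knockout mice. The group titled normal held 4 livers on 430A: liver 1 of a wildtype mouse on water, liver 2 of a wildtype mouse on NTBC, liver 3 of a Fah knockout on NTBC and liver 4 of a Fah, p21 knockout on NTBC. The single knockout group held 3 livers of Fah knockouts 14 days after NTBC was withdrawn. The double knockout group held 2 livers of Fah, p21 knockouts after the same withdrawal, and all 5 livers off NTBC therefore lacked Fah. On 430 2.0 there were double knockout livers 3 and 4 off NTBC and 1 liver of a double knockout on NTBC titled normal, with replicate number 4; the labels do not say whether it is the same mouse as normal liver 4 on 430A. No strain or sex was given in the sources.

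Mitotic genes are silent in resting cells and are switched on together late in the cell cycle. In resting cells the DREAM complex, built from the MuvB proteins, E2f4 or E2f5 and the RB relatives Rbl1 or Rbl2, sits on short promoter elements called CHR (cell cycle genes homology region) and CCAAT boxes lie close by, bound by the factor NF-Y. Later in the cycle MuvB instead binds B-Myb and Foxm1, which activate the same promoters. The product of Cdkn1a, p21, inhibits the cyclin-dependent kinases that would take the repressor apart, and p53 raises p21 after damage. Adult hepatocytes rarely divide, but re-enter the cycle when liver mass is lost.

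The promoters of the members were read first, because CHR elements and CCAAT boxes are the sequence features through which this class of genes is known to be regulated. RefSeq promoter windows of the build GRCm38.p6, from 250 bases before to 50 bases after a gene start, matched 38 of the 44 genes with 41 windows. CHR was searched as TTTGAA or TTCGAA and the CCAAT box as CCAAT, both on either strand; matches of different motifs can share bases at their ends. In the sequences below, which run from 150 bases before the start to the base before it on the strand of the gene, capitals mark these matches. The sequences of Cdk1 to Mki67 come from members that rose in double knockout liver and hold both motifs. Those of Gtse1 to Pttg1 come from members that also passed the test in single knockout liver. Ube2c, printed before them, passed that test too, as did Smc2, which is not printed, and both have a CHR match. The printed sequences therefore do not show how common CHR matches are among the members that passed there.
Cdk1 (chr10:69352913-69353062, minus strand): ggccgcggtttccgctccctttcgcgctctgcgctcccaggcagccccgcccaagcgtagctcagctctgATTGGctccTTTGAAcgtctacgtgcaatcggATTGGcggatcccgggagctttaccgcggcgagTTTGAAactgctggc
Ube2c (chr2:164769779-164769928, plus strand): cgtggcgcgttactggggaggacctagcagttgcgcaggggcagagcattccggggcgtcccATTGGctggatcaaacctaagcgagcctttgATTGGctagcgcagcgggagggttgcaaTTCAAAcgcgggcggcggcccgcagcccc
Cdc20 (chr4:118437344-118437493, minus strand): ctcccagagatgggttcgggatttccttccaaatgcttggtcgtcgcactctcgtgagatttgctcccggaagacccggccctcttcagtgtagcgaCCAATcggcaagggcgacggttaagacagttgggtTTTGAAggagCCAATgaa
Top2a (chr11:99024190-99024339, minus strand): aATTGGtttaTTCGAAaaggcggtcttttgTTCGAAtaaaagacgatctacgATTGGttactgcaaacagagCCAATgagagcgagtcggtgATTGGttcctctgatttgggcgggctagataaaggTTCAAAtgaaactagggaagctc
Mki67 (chr7:135716380-135716529, minus strand): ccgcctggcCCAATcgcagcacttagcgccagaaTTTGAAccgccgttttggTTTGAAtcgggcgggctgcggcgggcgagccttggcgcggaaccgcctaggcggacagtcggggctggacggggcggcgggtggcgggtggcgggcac
Gtse1 (chr15:85859557-85859706, plus strand): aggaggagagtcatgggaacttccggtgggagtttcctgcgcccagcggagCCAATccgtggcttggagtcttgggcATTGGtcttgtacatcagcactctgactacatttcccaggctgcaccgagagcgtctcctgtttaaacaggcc
Psrc1 (chr3:108383654-108383803, plus strand): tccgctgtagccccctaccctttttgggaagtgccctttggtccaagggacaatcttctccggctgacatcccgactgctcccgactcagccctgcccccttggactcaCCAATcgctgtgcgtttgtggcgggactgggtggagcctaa
Cks2 (chr13:51645082-51645231, plus strand): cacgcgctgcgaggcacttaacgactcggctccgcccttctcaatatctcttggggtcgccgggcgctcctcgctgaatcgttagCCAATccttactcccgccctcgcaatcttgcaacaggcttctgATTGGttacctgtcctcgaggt
Pttg1 (chr11:43425982-43426131, minus strand): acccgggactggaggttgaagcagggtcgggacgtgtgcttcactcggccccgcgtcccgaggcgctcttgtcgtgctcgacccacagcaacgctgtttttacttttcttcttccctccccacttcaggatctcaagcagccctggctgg

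A CHR match lay in 27 of the 38 genes and in 70.7% of their 41 windows, against 19.2% of all 32851 RefSeq windows of the same length. Within 50 bases of the start on either side the shares were 61.0% and 5.6%. A CCAAT box was present in 30 of the 38 genes, that is in 80.5% of their windows against 37.4% of all windows, and both motifs stood in 65.9% against 7.52%. E2F sites, searched as TTTGGCGC or TTTCGCGC on both strands, were in 2 of the 38 genes, with 4.88% of windows against 0.813%. The members' windows had a median GC content of 59.7%, against 52.7% for all windows. The 37 CHR matches had a median position 15 bases before the start, and the 75 CCAAT matches a median position 68 bases before it. Cdk1 carried CHR matches 71 and 15 bases before its start, and Ube2c carried 1 match 29 bases before it. Of the 6 members that passed in single knockout liver, 3 had a CHR match in a window (Psrc1, Smc2 and Ube2c), and of the 30 other members with a window on 430A, 23 had one. Psrc1 has 2 windows: its match lay just after the first start, outside the stretch printed, and 30 bases before the second start, whose window is not printed. Gtse1, Cks2 and Pttg1 had none in their windows, which says only that these letters are not there. A match is a description of the sequence; binding was not measured.

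**Figure D1:**
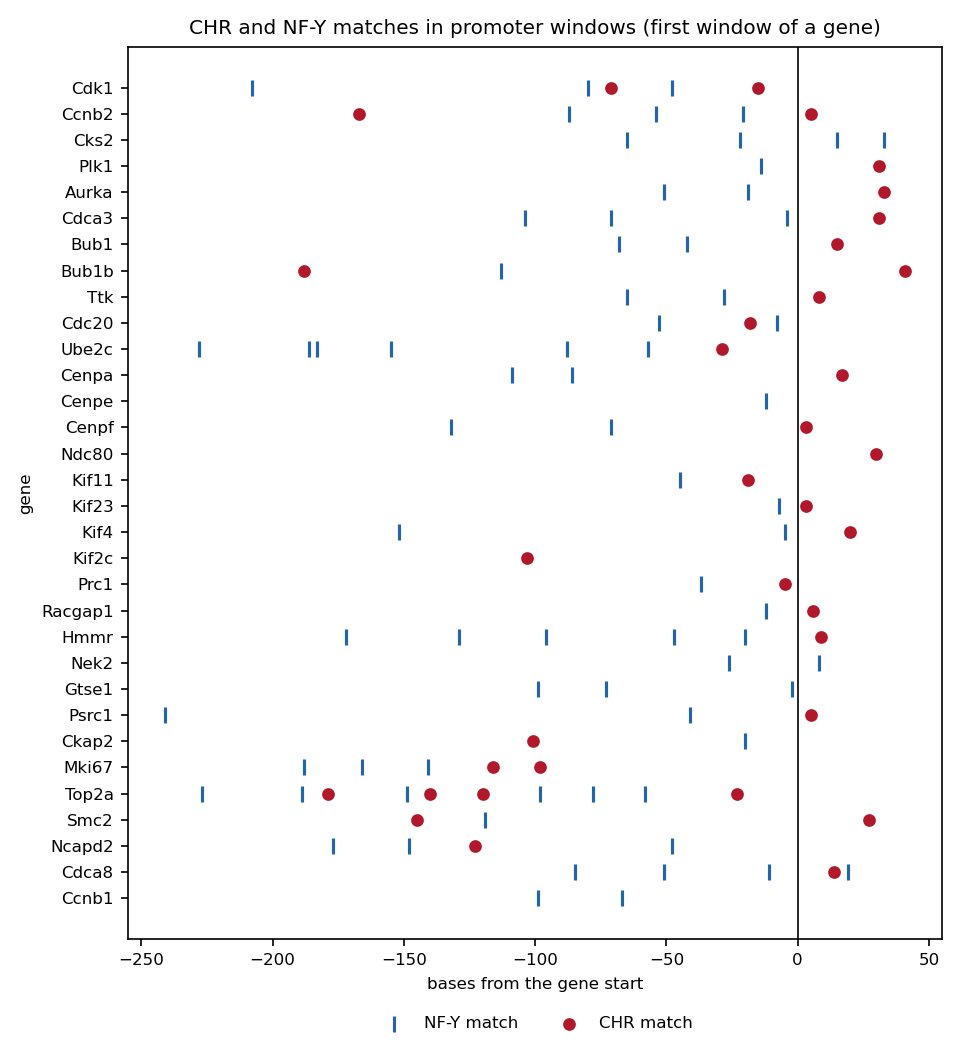
Positions of CHR (red points) and CCAAT (NF-Y, blue ticks) matches in the first RefSeq promoter window of each member that has one, in bases from the gene start (x axis, from 250 before to 50 after). The 37 CHR matches of all 41 windows centre near the start, with 25 within 50 bases of it, and the CCAAT matches lie mostly before them.

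The targeted genes follow the labels on 430A as far as their probe sets allow. The Fah signal of the wildtype livers was 6868 and 7120, that of Fah knockout and double knockout liver on NTBC was 181.9 and 233, and the 5 livers off NTBC were at 100.8 to 114.2. One Cdkn1a probe set was at 14.7 to 51.4 in normal, 989.5 to 1861.5 in single knockout and 8.2 to 9.5 in double knockout livers. A second one was at 75.2 to 257.7 in normal, 2814 to 3935.7 in single knockout, and 1827.6 and 2059.6 in double knockout livers. The second one thus rose in both groups off NTBC and does not show the deletion. The hepatocyte marker Alb was bright in all livers, and its signal was 17061 to 18855 in the normal livers. All 6 hepatocyte markers on 430A fell in both comparisons with normal liver, and their summed signal was 74560 to 82670 in normal, 45840 to 50780 in single knockout and 45840 to 48160 in double knockout livers. Over all genes, 11.6% were called lower in the single and 8.04% in the double knockout, and 14.4% and 12.8% were called higher. Of 6 cholangiocyte markers, 4 rose in both comparisons, with sums of 154.7 to 303.1, 863.3 to 992.2 and 815.6 to 1540, while Krt7 and Krt19 were under the 40th percentile of signal on every array. The other lists of markers showed 2 and 4 of 9 macrophage genes higher in the single and the double knockout, 1 and 4 of 8 stellate cell genes, 1 and 1 of 7 endothelial genes, and 0 of 7 lymphocyte and 0 of 7 neutrophil genes. Of 5 erythroid genes 1 was higher and 2 were lower in both comparisons. Summed macrophage signal was 5581 to 10020 in normal, 8466 to 10280 in single knockout and 11420 to 11580 in double knockout livers, and summed stellate cell signal was 2399 to 2755, 2744 to 4534 and 4704 to 5499. No marker of any of the 8 cell types passed between double and single knockout liver. The part of these markers in the results below was not tested. In whole liver, fewer cells of a type and less RNA per cell cannot be told apart.

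The comparisons made on 430A were 3: single knockout against normal, double knockout against normal, and double against single knockout. The first and the second share the normal livers, so the third is also the test of the difference between them. Values are MAS5 signals on a linear scale, scaled by the authors to a common level per array. A difference is the difference of group means of log2(signal + 9.8), given with the SE of the limma fit, and it understates the change of dim probe sets. A gene was read through its representative, the probe set with the highest mean over all arrays. It passed at a Benjamini-Hochberg adjusted p under 0.05 from limma over all 22626 probe sets. The titles name the arrays biological replicates, the p-values measure the spread between them, and in the normal group that spread includes 4 conditions.

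Most of the mitotic genes rose in double knockout livers off NTBC. In single knockout livers the share that rose, 14.3%, was near that of all genes, 14.4%. In double knockout against normal liver, 35 of the 42 members were higher and 0 lower, where 12.8% of all genes were called higher. The median difference was 2.19, a 4.56-fold change on this scale, against 0.09 for all genes. Over all 75 member probe sets 56 were higher (74.7%), against 12.1% of all probe sets, with a median difference of 1.94. The difference was positive for all 42 members (57.4% of all genes), from 0.12 for Cenpf to 4.70 for Cdk1. Both double knockout livers were above all 4 normal livers for 36 members (85.7%), against 24.3% of all genes. Counting a gene where any of its probe sets passed, 40 of 42 members were higher, against 15.7% of all genes, and the 2 others were Cenpe and Cenpf. Without double knockout liver 2 the count was 23, with the 1 double knockout liver left assumed to vary like the other groups. Against the double knockout liver on NTBC as the only normal liver, which reduces the normal livers from 4 to 1, the count was 11. Among the members named here that lost the call there, the difference was 2.66 against 2.77 for Smc2 and 3.49 against 3.77 for Mki67. For Top2a it was 2.60 against 3.20, for Bub1b 2.68 against 2.96 and for Prc1 2.35 against 2.54. For Nusap1 it was 1.76 against 2.35 and for Aurkb 1.62 against 1.94. The smallest were those of Racgap1, 1.06 against 1.24, and Kif2c, 0.74 against 0.93.

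In single knockout against normal liver, 6 of 42 members were higher and 0 lower, a share of 14.3%, where 14.4% of all genes were called higher. The median difference of the members was 0.17, against -0.01 for all genes, and 27 of 42 differences were positive (49.0% of all genes). The groups did not overlap, with single knockout livers higher, for 9 members (21.4%), against 18.6% of all genes. The 6 members that rose were Gtse1, Psrc1, Ube2c, Smc2, Pttg1 and Cks2. With the Fah knockout on NTBC as the only normal liver, the count was 3: Gtse1, Psrc1 and Ube2c.

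Between double and single knockout liver, 1 of 42 members passed, Cdk1, where 0.0323% of all genes were called higher. The median difference was 1.84, against 0.08 for all genes, and 41 of 42 differences were positive (61.9% of all genes). At an unadjusted p under 0.05 there were 36 members, all higher, against 8.23% of all genes in either direction. Both double knockout livers lay above all 3 single knockout livers for 38 members (90.5%), against 18.2% of all genes. Leaving out double knockout liver 1 raised the count of members that passed to 26, and leaving out double knockout liver 2 or any single knockout liver lowered it to 0. Without either double knockout liver the other is a lone sample assumed to vary like the other groups. The count also went to 0 without the offset, without the intensity trend, and with only the 2 groups in the fit. A filter on mean signal removed Cdk1 before the test, so it was not tested there.

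**Figure D2:**
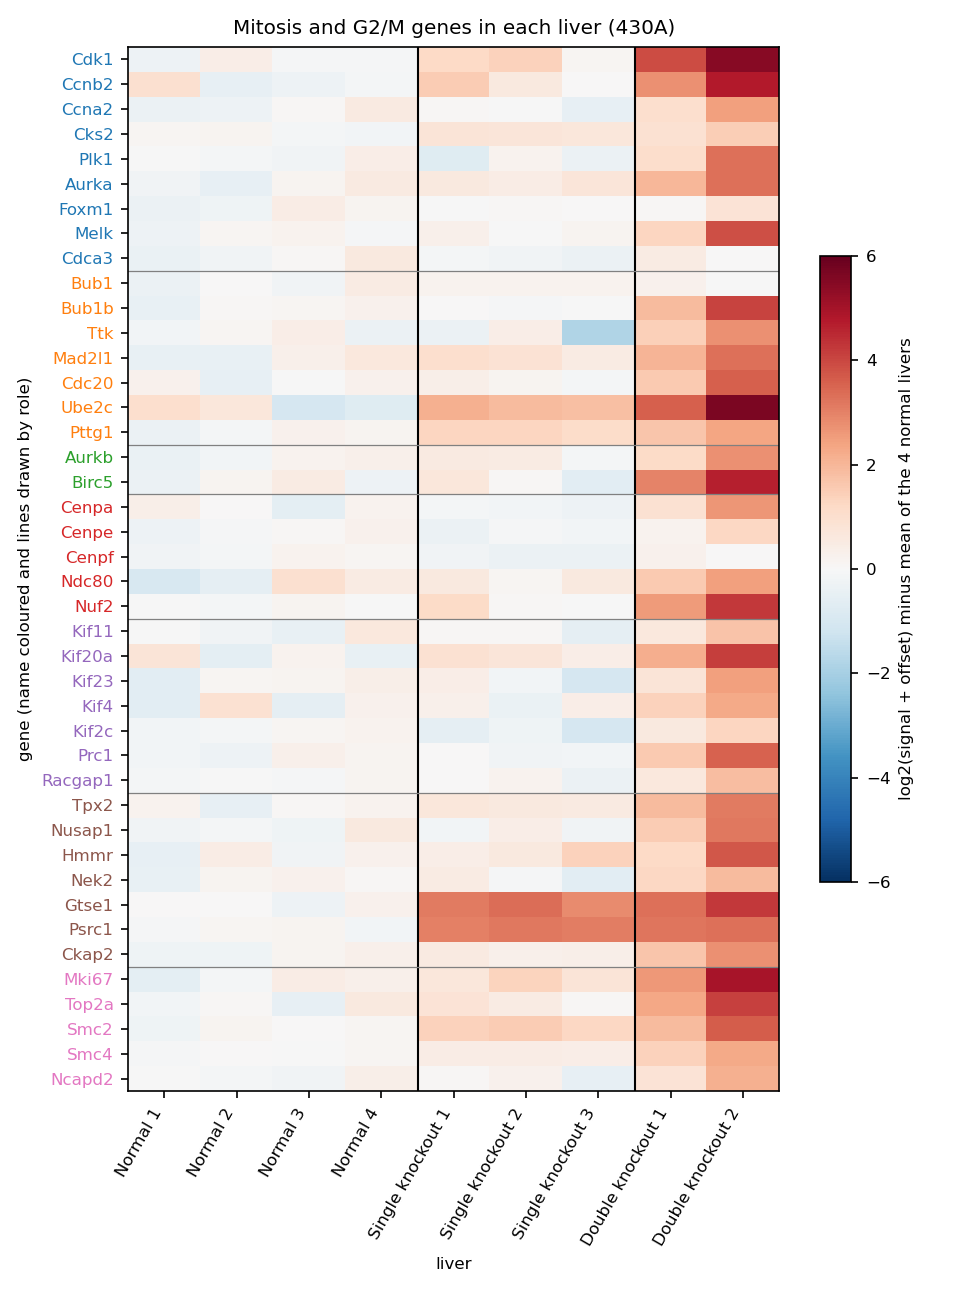
Heat map of the 42 members (rows, ordered and coloured by role) in the 9 livers on 430A (columns), as log2(signal + offset) minus the mean of the 4 normal livers, with red above and blue below that mean. The median of the members was 1.49 in double knockout liver 1 and 2.93 in liver 2, and 0.03 to 0.42 in the single knockout livers.

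**Figure D3:**
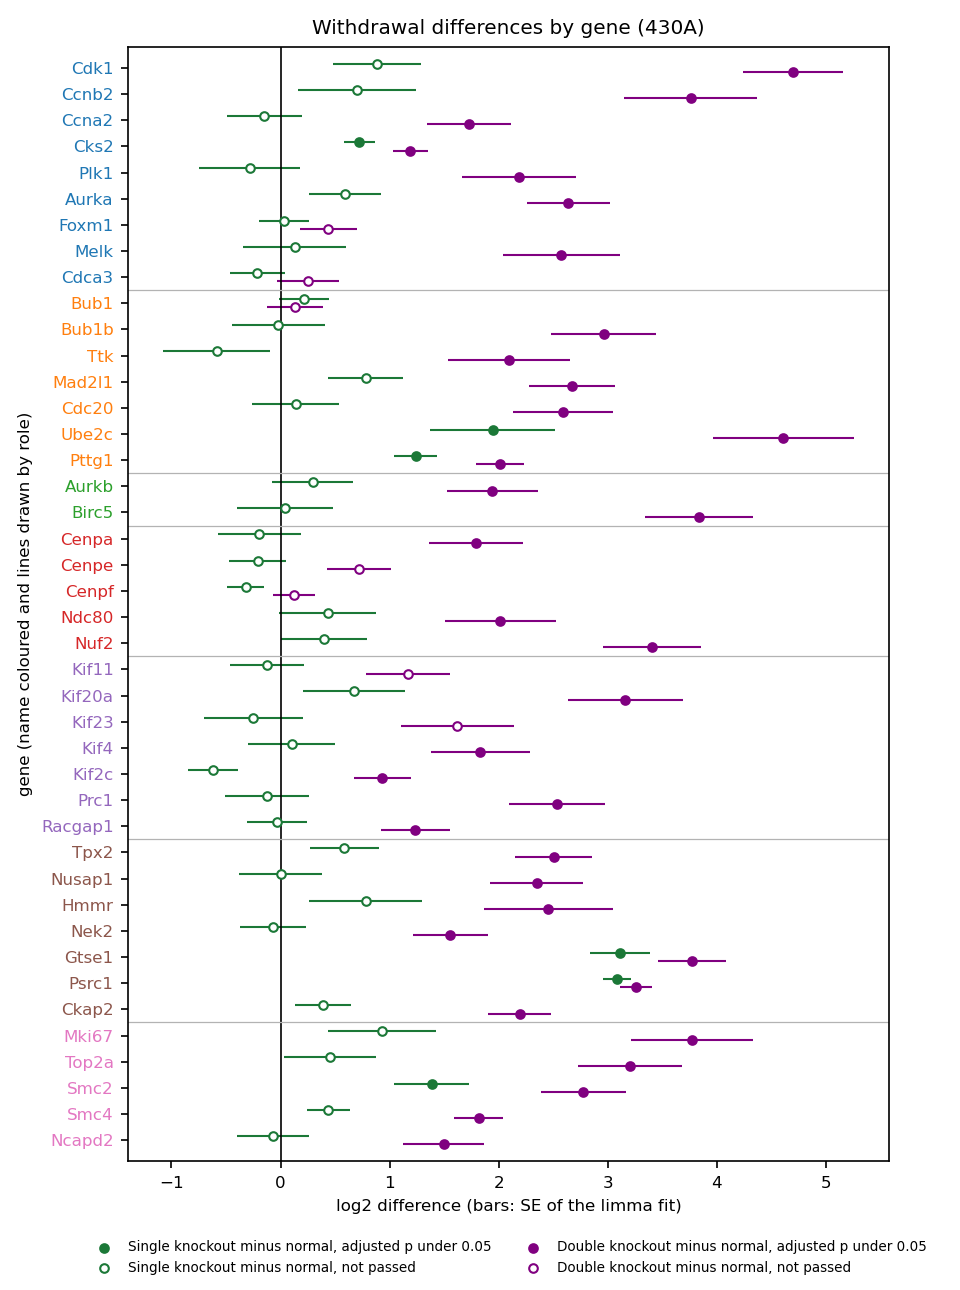
Differences from normal liver in single knockout (green) and double knockout (purple) livers for the 42 members on 430A, on the log2 scale, with bars for the SE of the limma fit and filled points for an adjusted p under 0.05. All 42 purple points lie above 0 and 35 are filled; 6 green points are filled.

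Entry into mitosis is driven by Cdk1, the kinase that binds cyclin B. Of the 9 members around it on 430A, 7 were higher in double knockout than in normal liver (12.8% of all genes). In single knockout liver 1 was higher (14.4% of all genes). Cdk1 signal was 20.4, 38.2, 25.7 and 25.8 in normal livers 1 to 4, 73.2, 84.8 and 30.4 in single knockout livers 1 to 3, and 549 and 1616.5 in double knockout livers 1 and 2. Both double knockout livers stood far above the other 7, and single knockout liver 3 lay within the range of the normal livers. The difference from normal liver was 4.70 ± 0.46 in the double knockout (adjusted p = 9.84e-05, limma) and 0.89 ± 0.40 in the single knockout (adjusted p = 0.146). Between double and single knockout it was 3.81 ± 0.48 (adjusted p = 0.0419). Over the alternatives that adjusted p ran from 0.00468 to 0.275, and it was 0.0951, 0.111 and 0.120 without single knockout livers 1, 2 and 3 and 0.193 without double knockout liver 2. Ccnb2, cyclin B2, Plk1 and Aurka, kinases of the spindle pole and of mitotic entry, and Ccna2, cyclin A2, also rose in the double knockout, with differences of 3.76, 2.19, 2.64 and 1.73. Melk, a kinase of dividing cells, rose by 2.57, from 1.2 to 5.9 in normal livers to 22.6 and 187.1 in double knockout livers.

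Cks2, a small subunit of cyclin-dependent kinases, was, unlike Cdk1, above the normal range in every single knockout liver. Its signal was 720, 746.6, 627.6 and 601 in normal livers, 1142, 1112 and 1083 in single knockout livers, and 1273 and 1874 in double knockout livers. The 3 groups did not overlap and followed each other in this order. Cks2 rose by 0.72 ± 0.14 in the single knockout (adjusted p = 0.00421, limma) and by 1.19 ± 0.16 in the double knockout (adjusted p = 0.000685). The difference between double and single knockout was 0.47 ± 0.17 (adjusted p = 0.545). Against the Fah knockout on NTBC alone the single knockout value was 0.82 with an adjusted p of 0.0751.

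Foxm1, the factor that activates many of these genes, and Cdca3, which takes part in the destruction of Wee1, did not pass in double knockout liver through their representatives, and other probe sets of both did. The representative of Foxm1 read 176.3, 188, 307.5 and 258.1 in normal, 219.6, 242.2 and 233 in single knockout, and 239.9 and 401.7 in double knockout livers. Its groups overlapped, and the difference from normal liver was 0.44 ± 0.26 (adjusted p = 0.297, limma). One other Foxm1 probe set read 4.5 to 6.9 in normal, 4.2 to 5.9 in single knockout and 13.2 and 42.6 in double knockout livers and rose by 1.19 (adjusted p = 0.014). The remaining 2 Foxm1 probe sets had differences of 0.46 and -0.09 and did not pass. Cdca3 read 98 to 200.9 in normal livers and 191.2 and 132.5 in double knockout livers through its representative, so the groups overlapped there. A second Cdca3 probe set read 55.2 to 101.8 in normal, 56.7 to 74.5 in single knockout and 200.1 and 921.4 in double knockout livers and rose by 2.44 (adjusted p = 0.0057). The brightest probe set of a gene was therefore not always the one that differed between the groups.

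The spindle checkpoint holds cells in metaphase until every chromosome is attached, and then Cdc20 and the ubiquitin-conjugating enzyme Ube2c lead the anaphase-promoting complex to its targets, securin (Pttg1) among them. Of 7 members on 430A, 6 were higher in double knockout (12.8% of all genes) and 2 in single knockout liver (14.4% of all genes). Bub1b, a checkpoint kinase-like protein, read 6.5, 13.3, 14.5 and 17.3 in normal, 13.1, 11.3 and 12.3 in single knockout, and 72.1 and 359.2 in double knockout livers. The single knockout livers lay inside the normal range, and both double knockout livers lay above it. Bub1b rose by 2.96 ± 0.48 in the double knockout (adjusted p = 0.00197, limma), its single knockout difference was -0.02 ± 0.43, and the difference between double and single knockout was 2.98 ± 0.51 (adjusted p = 0.0851). Mad2l1, which forms the checkpoint signal, Cdc20 and Ttk, the kinase that starts the signal, rose by 2.67, 2.59 and 2.09 in the double knockout.

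Bub1, the kinase that recruits checkpoint proteins to the kinetochore, was read by 2 probe sets that differed. The representative read 9.7 to 25 in normal, 18.6 to 18.7 in single knockout and 20 and 14.5 in double knockout livers, with overlapping groups and a difference of 0.13 ± 0.26. The other read 3.2, 1.2, 2.5 and 4.2 in normal, 3.2, 2.3 and 2 in single knockout, and 32 and 228.7 in double knockout livers. Only the 2 double knockout livers stood apart there, and the rise was 2.99 (adjusted p = 0.00251, limma). On 430 2.0 that second probe set was the representative and read 1.8 in the normal liver and 496.2 and 396.1 in the double knockout livers.

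Ube2c was high in all 5 livers off NTBC. Its signal was 51.1, 39, 5.2 and 8.7 in normal livers, 122.4, 102.1 and 96 in single knockout livers, and 349.1 and 1499.5 in double knockout livers. The 3 groups did not overlap, and both wildtype livers were above both knockout livers on NTBC. Ube2c rose by 4.61 ± 0.65 in the double knockout (adjusted p = 0.000845, limma) and by 1.95 ± 0.57 in the single knockout (adjusted p = 0.0314). That second call ended without normal liver 3 or 4 (adjusted p = 0.0689 and 0.0759), without single knockout liver 1, 2 or 3 (0.0953, 0.0795 and 0.0678), with wildtype controls only (1.09, adjusted p = 0.178), with quantile normalization (0.0524) and with a larger offset (0.0645). Pttg1, the brightest member of the checkpoint group, read 782.4, 926.8, 1211 and 1122 in normal, 2486, 2464 and 2153 in single knockout, and 3144 and 5207 in double knockout livers. Each off-NTBC group lay above the normal livers, and the double knockout livers lay above the single knockout livers. Pttg1 rose by 1.24 ± 0.19 in the single knockout (adjusted p = 0.0010) and by 2.01 ± 0.22 in the double knockout (adjusted p = 0.000182). The difference between double and single knockout was 0.77 ± 0.23 (adjusted p = 0.399), and the single knockout value against the Fah knockout on NTBC alone was 0.96 with an adjusted p of 0.0854. Of its 3 probe sets on 430A, 1 did not pass in the double knockout (1.50, adjusted p = 0.0718).

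**Figure D4:**
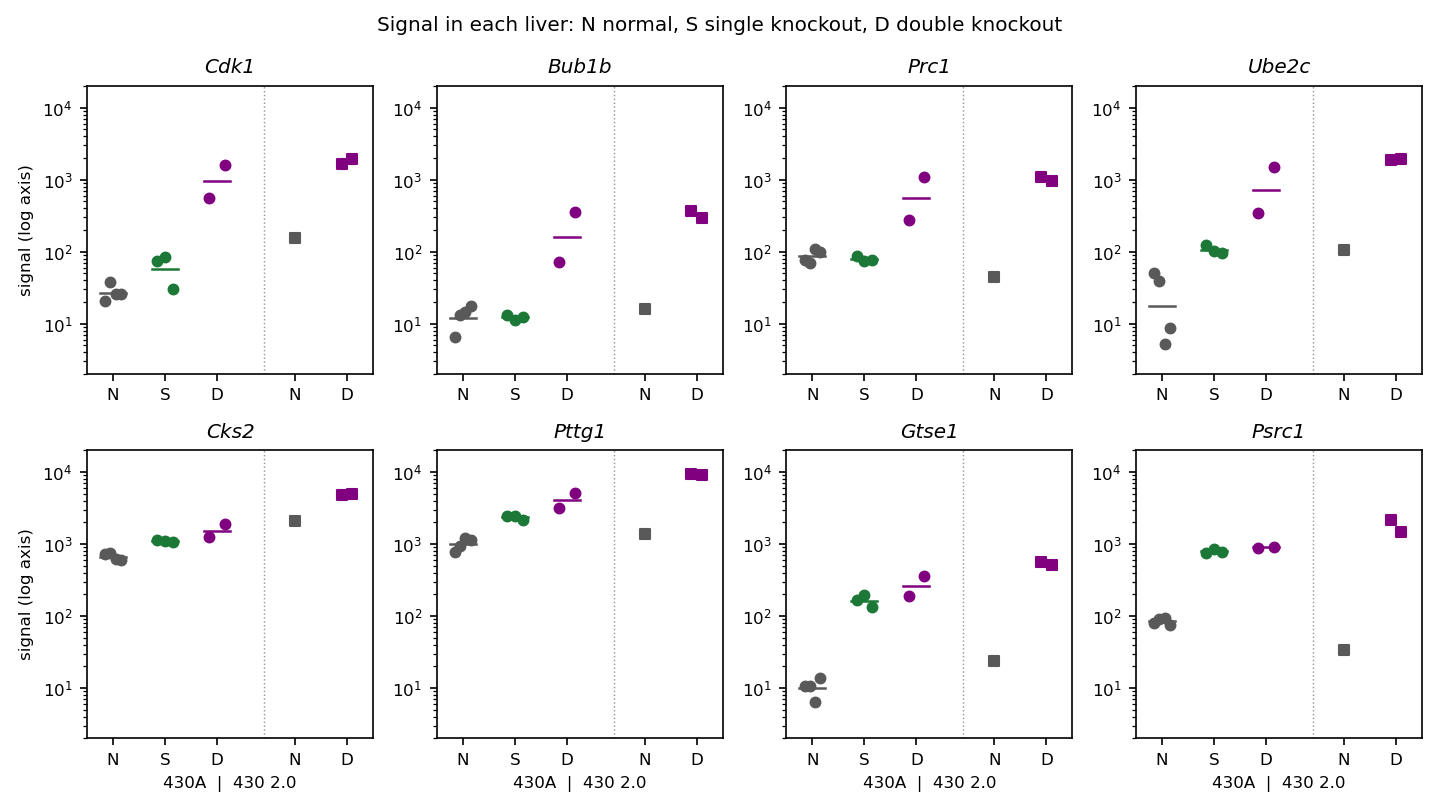
Signal of 8 members in every liver (log axis) on 430A (circles, left of the dotted line) and 430 2.0 (squares, right of it), for normal (N), single knockout (S) and double knockout (D) livers, with lines at the geometric mean of each 430A group. Cdk1, Bub1b and Prc1 were high in the double knockout livers. Ube2c, Cks2, Pttg1, Gtse1 and Psrc1 were above the normal livers in every single and double knockout liver.

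The chromosomal passenger complex, which corrects wrong attachments and guides cytokinesis, was measured on 430A through its kinase Aurkb and through Birc5, also called survivin. Both were higher in the double knockout (12.8% of all genes) and neither passed in the single knockout (14.4% of all genes were higher). Birc5 read 11.4, 20.6, 27.7 and 11.8 in normal, 33.5, 18.3 and 7.6 in single knockout, and 204.6 and 678.3 in double knockout livers. The single knockout livers lay below, within and above the normal range, and both double knockout livers were above all of them. Birc5 rose by 3.84 ± 0.50 in the double knockout (adjusted p = 0.000514, limma), and its difference between double and single knockout was 3.80 ± 0.52 with an adjusted p of 0.0514. That value passed with a larger offset (adjusted p = 0.0413), with arrays scaled to a common median (0.0497), with the mean over probe sets (0.0451) and without double knockout liver 1 (0.00589), a value that rests on 1 double knockout liver. Aurkb read 39.9 to 70.9 in normal, 82.9, 81.2 and 49.3 in single knockout, and 132.8 and 423.2 in double knockout livers. It rose by 1.94 ± 0.42 in the double knockout (adjusted p = 0.00894), but without double knockout liver 2 the difference was 1.14 with an adjusted p of 0.112.

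The kinetochore joins chromosomes to spindle fibres. Of its 5 members 3 were higher in the double knockout (12.8% of all genes) and 0 in the single knockout (14.4% of all genes). Nuf2, a subunit of the microtubule-binding Ndc80 complex, read 6, 4.9, 8.4 and 6 in normal, 25.4, 7.2 and 6.1 in single knockout, and 85.8 and 292.9 in double knockout livers. Single knockout liver 1 lay above the normal livers, the other 2 lay among them, and both double knockout livers were above all others. Nuf2 rose by 3.40 ± 0.45 (adjusted p = 0.000552, limma), and Ndc80 and the centromeric histone Cenpa rose by 2.02 and 1.80. Cenpf, a large protein of the outer kinetochore, and Cenpe, its kinesin motor, did not pass. Cenpf read 148.4, 163.7, 204.8 and 190.4 in normal, 148.5, 134.8 and 133.2 in single knockout, and 208.3 and 176.8 in double knockout livers through its representative. The groups overlapped, and the difference of the double knockout from normal liver was 0.12 ± 0.19. The other Cenpf probe set read 102.3, 72, 77.6 and 180.1 in normal, 117.1, 128.4 and 98.4 in single knockout, and 145.2 and 482.4 in double knockout livers, with a difference of 1.31 that did not pass (adjusted p = 0.0699). On 430 2.0 this second probe set was the representative of Cenpf, at 65.2 in the normal liver and 883.9 and 571.8 in the double knockout livers. Cenpe likewise read 8 in the normal liver there and 661.6 and 285.1 in the double knockout livers.

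Kinesins build the spindle and, with Prc1 and Racgap1, the midzone where the cell divides. Of 7 members, 5 were higher in the double knockout (12.8% of all genes) and 0 in the single knockout (14.4% of all genes). Prc1, which bundles midzone microtubules, read 75.3, 68.7, 109.4 and 100 in normal, 87.5, 73.4 and 76.2 in single knockout, and 273.7 and 1099.5 in double knockout livers. Normal and single knockout livers overlapped fully, and both double knockout livers were above them. Prc1 rose by 2.54 ± 0.44 (adjusted p = 0.00267, limma), and its difference between double and single knockout was 2.66 ± 0.46 (adjusted p = 0.0862). Racgap1, a regulator of the contractile ring, read 103.3 to 127.2 in normal, 112.8, 131.9 and 85.4 in single knockout, and 177 and 425.1 in double knockout livers. It rose by 1.24 ± 0.32 (adjusted p = 0.0206), and without double knockout liver 2 the difference was 0.63 with an adjusted p of 0.245. Kif20a, a kinesin of cytokinesis, rose by 3.16, and Kif4, a chromosome-arm kinesin, by 1.83.

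Kif2c, a kinesin that shortens microtubules, was, through its representative, the only one of the member kinesins for which all single knockout livers were below the normal livers. Its signal there was 179.8, 182.9, 218.5 and 232.9 in normal, 134.8, 164.8 and 94.8 in single knockout, and 303.9 and 512.7 in double knockout livers. The 3 groups did not overlap, with single knockout lowest and double knockout highest. The single knockout difference was -0.62 ± 0.23 (adjusted p = 0.0809, limma). The double knockout rise was 0.93 ± 0.26 (adjusted p = 0.0315), which did not pass without double knockout liver 2 (0.56, adjusted p = 0.310), without normal liver 1 (0.88, adjusted p = 0.0688) or without normal liver 2 (0.89, adjusted p = 0.0707), nor with arrays scaled to a common median (0.70, adjusted p = 0.0672). The 3 other Kif2c probe sets did not share the low single knockout values, with single knockout differences of 0.06, 0.54 and 0.28. The first read 64.5, 51.2, 102.9 and 50.1 in normal, 57.9, 91.5 and 57.8 in single knockout, and 99.1 and 55.1 in double knockout livers, and its double knockout difference of 0.18 did not pass (adjusted p = 0.791). The second read 22.7 to 46.1 in normal, 35, 46.7 and 80.1 in single knockout, and 78.5 and 370.8 in double knockout livers, and rose by 2.13 (adjusted p = 0.0163). The third read 37.9 to 107.9 in normal, 116.6, 76.8 and 75.1 in single knockout, and 135.7 and 324.3 in double knockout livers, and rose by 1.45 (adjusted p = 0.0336). In these 3, single knockout and normal livers overlapped. Kif11, the motor that separates the spindle poles, and Kif23, a motor of the midzone, did not pass through their representatives. Kif11 read 39.6 to 93.6 in normal, 36.3 to 60.5 in single knockout, and 93.2 and 206.7 in double knockout livers, a difference of 1.17 ± 0.39 (adjusted p = 0.0613). Kif23 read 16.6 to 41.9, 10.5 to 45.1, and 61.1 and 216.2, a difference of 1.62 ± 0.52 (adjusted p = 0.052). For each, 1 dimmer probe set passed, at 1.21 for Kif11 (adjusted p = 0.0447) and 1.12 for Kif23 (adjusted p = 0.0217).

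Of the spindle and centrosome proteins, all 7 members were higher in the double knockout (12.8% of all genes). Gtse1 and Psrc1, 2 of the 7, also rose in the single knockout (14.4% of all genes). Gtse1, a microtubule-binding protein of G2 and S phase and a p53 target, read 10.6, 10.8, 6.4 and 13.8 in normal, 164.9, 196 and 134.6 in single knockout, and 189.5 and 365.8 in double knockout livers. All 5 livers off NTBC stood far above the normal livers, and single knockout liver 2 lay between the double knockout livers. Gtse1 rose by 3.11 ± 0.27 in the single knockout (adjusted p = 2.57e-05, limma) and by 3.77 ± 0.31 in the double knockout, with a difference between them of 0.66 ± 0.33 (adjusted p = 0.704). Psrc1, a microtubule regulator also known as a p53 target, read 80.1, 91.8, 95.2 and 74.1 in normal, 762, 842.9 and 774.6 in single knockout, and 878.6 and 916.1 in double knockout livers. The single knockout livers had nearly the level of the double knockout livers, and the normal livers were far lower. Psrc1 rose by 3.08 ± 0.13 in the single knockout (adjusted p = 2.9e-07) and by 3.26 ± 0.15 in the double knockout. Between double and single knockout it differed by 0.18 ± 0.16 (adjusted p = 0.852). A second Psrc1 probe set gave 14.1 to 24.8, 298.1 to 308.8, and 333.8 and 356.9 in the same order of groups, and another, near the low end of signal, did not pass.

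Nusap1, which binds spindle microtubules near chromosomes, was high in both double knockout livers and within the normal range in the single knockout livers. It read 58.4, 62.1, 54.7 and 107.1 in normal, 59.5, 92 and 57.5 in single knockout, and 216.1 and 686.9 in double knockout livers. Single knockout and normal livers overlapped. Nusap1 rose by 2.35 ± 0.43 in the double knockout (adjusted p = 0.0036, limma), its single knockout difference was 0.00 ± 0.38, and the difference between double and single knockout was 2.35 ± 0.45 (adjusted p = 0.116). A second Nusap1 probe set read 36.9 and 59.9 in the double knockout against 16.5 to 46.2 in normal livers and did not pass. Hmmr, a spindle and hyaluronan-binding protein, Tpx2, the activator of Aurka, Ckap2, a spindle protein, and Nek2, a centrosome kinase, rose by 2.46, 2.51, 2.19 and 1.56 in the double knockout, and none of them passed in the single knockout.

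Chromosome structure was represented by the proliferation antigen Mki67, which coats mitotic chromosomes, by topoisomerase Top2a and by the condensin subunits Smc2, Smc4 and Ncapd2. All 5 were higher in the double knockout (12.8% of all genes) and 1, Smc2, in the single knockout (14.4% of all genes). Mki67 read 5, 10.8, 20.4 and 17.5 in normal, 26.1, 46.7 and 28.3 in single knockout, and 124.9 and 686.4 in double knockout livers. The groups did not overlap, but the single knockout difference of 0.93 ± 0.50 did not pass (adjusted p = 0.217, limma). Mki67 rose by 3.77 ± 0.56 in the double knockout (adjusted p = 0.00114), and double and single knockout differed by 2.85 ± 0.59 (adjusted p = 0.155). Top2a, which untangles sister chromatids, read 37.4, 44.4, 27.1 and 69.9 in normal, 81.5, 63.2 and 45.6 in single knockout, and 248.1 and 890.7 in double knockout livers. It rose by 3.20 ± 0.47 in the double knockout (adjusted p = 0.00111), and a second Top2a probe set stayed at 3.5 to 8.4 in all 9 livers.

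Of the condensin subunits, Smc2 passed in the single knockout and Smc4 and Ncapd2 did not. Smc2 read 42.8, 60.9, 54.3 and 59.1 in normal, 156.4, 171.7 and 142.7 in single knockout, and 230.1 and 781.1 in double knockout livers. The 3 groups did not overlap, and the lowest single knockout liver was well above the highest normal liver. Smc2 rose by 1.39 ± 0.34 in the single knockout (adjusted p = 0.0139, limma) and by 2.77 ± 0.39 in the double knockout. The single knockout call ended without single knockout liver 2 (1.32, adjusted p = 0.0534) and with wildtype controls only (1.45, adjusted p = 0.0508), and against the Fah knockout on NTBC alone (1.38, adjusted p = 0.205). Smc4, its partner in the ring, read 152.9 to 175.3 in normal, 223.4, 229.3 and 220.7 in single knockout, and 435.9 and 822.4 in double knockout livers through its representative, again without overlap. Smc4 rose by 1.82 ± 0.22 in the double knockout (adjusted p = 0.00038), and its single knockout difference of 0.44 ± 0.20 did not pass (adjusted p = 0.143). A second Smc4 probe set read 61.4, 92.9, 35.1 and 39.4 in normal, 47.9, 77.1 and 266.7 in single knockout, and 128.3 and 410.8 in double knockout livers; its groups overlapped, and its difference of 1.93 did not pass (adjusted p = 0.0586). The third read 20.1 to 35 in normal, 49.2, 34.3 and 47.2 in single knockout, and 67.4 and 215.5 in double knockout livers, and rose by 1.83 (adjusted p = 0.0088). Between double and single knockout the representative of Smc4 differed by 1.38 ± 0.24 (adjusted p = 0.0851), and Ncapd2 had a single knockout difference of -0.07 ± 0.33.

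Counted over livers, double knockout livers 1 and 2 were both above all 7 others for 34 of 42 members, against 6.48% of all genes. The 2 livers were not alike. Liver 2 was above liver 1 for 39 of 42 members, against 42.9% of all genes. The median ratio of signal was 2.59, with a range from 0.693 for Cdca3 to 8.28 for Melk. On the log2 scale the excess of liver 2 was above 1 for 29 members, against 2.74% of all genes. Liver 1 alone was still above all 7 livers other than double knockouts for 35 members, against 18.0% of all genes. The excess was small for Psrc1, with a ratio of 1.04, for Cks2 (1.47) and for Pttg1 (1.66), and large for Hmmr (6.07), Mki67 (5.50), Plk1 (5.07) and Bub1b (4.98). The mean of the double knockout group therefore lies between 2 livers that differ by more than the normal livers did, whose medians relative to their own mean ran from -0.21 to 0.23. Summed signal of hepatocyte markers was 48162 in liver 1 and 45840 in liver 2, that of macrophage markers 11418 and 11576, that of cholangiocyte markers 815.6 and 1540.5, that of stellate cell markers 4704 and 5499, and that of erythroid markers 3262 and 1234. The cholangiocyte and stellate cell sums were thus higher in liver 2, as the members were, and the erythroid sum was lower. Prom1, at 309.8 and 828, made most of the cholangiocyte rise, and of these markers only Krt7 was lower in liver 2. Tfrc, at 2648.6 and 817.7, made most of the erythroid fall, and of these markers only Klf1 was higher in liver 2. The sums were 3323 and 2769 for endothelial, 558.7 and 484.6 for lymphocyte and 714.2 and 746.4 for neutrophil markers. The part of any of these in the difference was not tested.

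**Figure D5:**
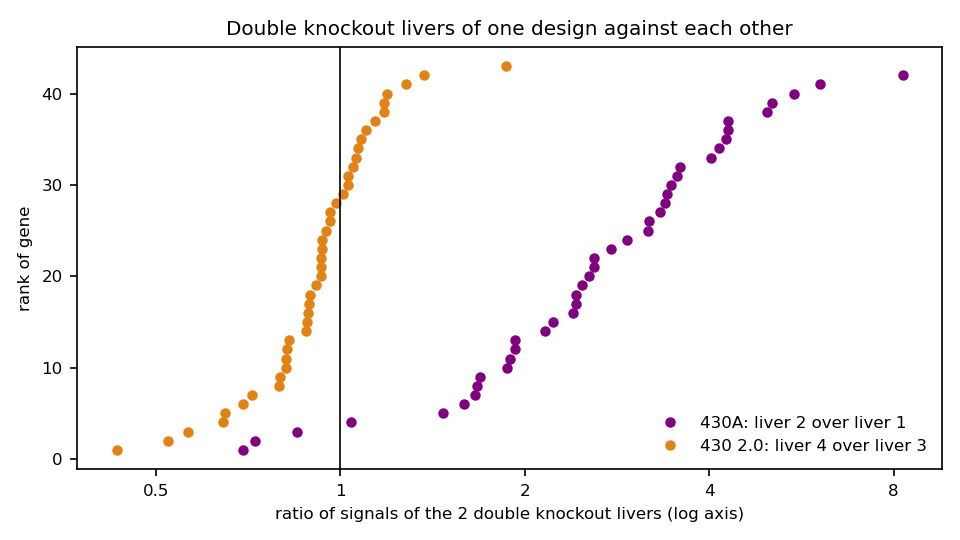
Ratio of signal between the 2 double knockout livers of each design for every member (x axis, log scale), with the genes ranked by ratio (y axis). On 430A (purple) liver 2 was above liver 1 for 39 of 42 members (42.9% of all genes), with a median ratio of 2.59. On 430 2.0 (orange) the median ratio of liver 4 over liver 3 was 0.930.

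On 430 2.0, 2 further double knockout livers were set against 1 double knockout liver on NTBC, which leaves 1 residual degree of freedom and a fit that leans on the spread of other probe sets. Of 43 members 39 were higher and 0 lower, where 2.44% of all genes were called higher. The median difference was 3.82, a 14.1-fold change on the scale of log2(signal + 3.8), and the range was 0.95 for Foxm1 to 6.32 for Bub1. The representative had the highest mean over 3 arrays, 2 of them double knockout. That choice can favour a probe set that rose in them. Over all 99 member probe sets 57 were higher (57.6%), against 1.59% of all probe sets, with a median difference of 2.88. With the mean of a gene's probe sets, Cdca3 (0.98, adjusted p = 0.219, limma), Top2a (1.43, 0.165) and Racgap1 (2.33, 0.0505) did not pass. All 43 members were higher in both double knockout livers than in the normal liver, against 40.2% of all genes. Cks2, Foxm1, Aurkb and Kif4 did not pass, and counting any probe set of a gene 42 members were higher, against 2.85% of all genes, with Kif4 left. The count of members that passed was 0 without the offset and without the intensity trend. Summed cholangiocyte signal was 283.2 in the normal liver and 2549.2 and 2340.7 in livers 3 and 4, and that of stellate cell markers 6069.6, 14851.8 and 12838.6. Macrophage markers summed to 18617.8, 26385.3 and 21908.5, and hepatocyte markers fell, at 109467.8, 90240.3 and 91106.3. Endothelial sums were 5903.9, 5861.6 and 5208.5, erythroid 3398.3, 3338.5 and 3567.0, and neutrophil 885.2, 606.6 and 436.1. Lymphocyte sums were 218.1, 278.6 and 174.9. Higher by the test were 2 of 6 cholangiocyte, 3 of 8 stellate cell, 1 of 9 macrophage, 1 of 7 endothelial and 1 of 5 erythroid genes (2.44% of all genes). One hepatocyte and 1 erythroid gene were lower (1.02% of all genes). The part of these markers in the result was not tested. The tables of the designs were scaled separately, so levels are not compared between them.

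Livers 3 and 4 were close to each other for these genes. The ratio of liver 4 to liver 3 had a median of 0.930, from 0.431 for Cenpe to 1.86 for Nuf2. It was above 1 for 15 of 43 members, against 47.9% of all genes. Cdk1 read 152.2 in the normal liver and 1655 and 1955 in livers 3 and 4, a rise of 3.53 ± 0.22 (adjusted p = 0.0143, limma). Cdc20 read 111.1, 4709 and 5174.5, a rise of 5.43 ± 0.20 (adjusted p = 0.0107). For each gene the 2 double knockout livers had nearly the same signal. Psrc1 read 34, 2154.5 and 1492, Gtse1 23.5, 555.2 and 515.1, and Pttg1 1378, 9569 and 9205, with rises of 5.57, 4.30 and 2.76. Cdca8, the passenger protein borealin, was measured on this design only and read 188.6, 1367 and 1271, a rise of 2.78 ± 0.21 (adjusted p = 0.0169). Mki67 read 88.2, 2021 and 1055, and Top2a read 79, 1764.5 and 1134, so liver 3 was the higher of the 2 for both.

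Genes outside the 44 that work in the same processes were read from lists chosen by function. Of 19 other kinetochore and centromere genes on 430A, 11 were higher in the double knockout and 5 in the single knockout, where 12.8% and 14.4% of all genes were. Their median double knockout difference was 1.37. Spc25, a partner of Nuf2 and Ndc80, rose by 1.05 in the single knockout (adjusted p = 0.0464, limma) and by 2.58 in the double knockout (adjusted p = 0.00114). Cenpq, of the inner kinetochore, rose by 1.37 in the double knockout (adjusted p = 0.00594), with a single knockout difference of -0.17. Zwint, a kinetochore linker, was higher in the single than in the double knockout livers, at 1817, 1942 and 2842 against 1678 and 1460, with normal livers at 776.7 to 913.8. Its difference between double and single knockout was -0.46 (adjusted p = 0.594), and it rose in both groups against normal liver, by 1.37 and 0.91.

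Of 14 other mitotic kinases, phosphatases and regulators, 8 were higher in the double (12.8% of all genes) and 3 in the single knockout (14.4% of all genes), with a median double knockout difference of 1.36. Pbk, a mitotic kinase, rose by 2.43 in the double knockout (adjusted p = 0.00621, limma), with signals of 168.5 and 794.3 against 53.5 to 79.5 in normal livers. Sgo1, the protector of centromeric cohesion, read 12 and 225.7 in double knockout livers 1 and 2 and 8.6 to 18.7 in normal livers, so liver 1 lay within the normal range. Its difference of 1.62 did not pass (adjusted p = 0.143). Wee1, which holds Cdk1 inactive, rose by 0.96 in the single and by 1.24 in the double knockout, and differed by 0.28 between them.

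Of 17 other kinesins, spindle and cytokinesis genes, 11 were higher in the double (12.8% of all genes) and 4 in the single knockout (14.4% of all genes), with medians of 1.29 and -0.10. Anln, the anillin of the contractile ring, read 82.5 and 619.9 in the double knockout against 34.7 to 69 in normal livers, and rose by 2.21 (adjusted p = 0.0375, limma). Stil, a centriole protein, rose by 2.26 (adjusted p = 0.00583), with a single knockout difference of -0.10. Cit, citron kinase, stayed at 6.1 to 14.8 in all 9 livers. Of 9 other condensin and cohesin subunits 3 were higher in the double knockout (12.8% of all genes) and 0 in the single knockout (14.4%). Ncapg2, of condensin II, rose by 2.93 in the double knockout (adjusted p = 0.00456), Ncapg had a difference of 0.91 (adjusted p = 0.38), and Stag2, a cohesin subunit present in resting cells too, had one of -0.06.

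The anaphase-promoting complex and the repressor complexes of mitotic genes are present in resting cells too. Of 12 subunits of the anaphase-promoting complex, 1 was higher in the double knockout (12.8% of all genes) and 1 was higher (14.4%) and 1 lower (11.6%) in the single knockout, with median differences of 0.02 and -0.20. Anapc4 rose by 0.89 in the single knockout (adjusted p = 0.00147, limma) and by 0.71 in the double knockout (adjusted p = 0.0145). Between double and single knockout Anapc4 had the smallest difference of the subunits, -0.18. Cdc27 and Cdc23, which had the largest, had double knockout differences of 0.80 and 0.15 from normal liver and did not pass. Of 10 genes of MuvB, B-Myb and the RB family, 5 were higher and 1 lower in the double knockout, and 2 higher and 1 lower in the single knockout, beside 12.8% higher and 8.04% lower of all genes in the double and 14.4% and 11.6% in the single knockout. Rbl2, the RB relative of resting cells, fell in both groups: its signal was 343.8 to 423.1 in normal, 150.3 to 183.6 in single knockout and 147.5 and 159.3 in double knockout livers. The fall was -1.17 in the single knockout (adjusted p = 0.00020) and -1.29 in the double knockout (adjusted p = 0.000392). Rbl1 and Lin9, a MuvB subunit, rose by 1.60 and 1.18 in the double knockout and had single knockout differences of 0.29 and 0.22. On 430 2.0, 0 of 13 genes of this list were higher (2.44% of all genes) and 0 lower (1.02%), with a median difference of 0.17. Differences there were -1.13 for Rbl2 (adjusted p = 0.0878, limma), 1.72 for Rbl1 and 0.43 for Lin9. Through their representatives, none of the genes in these 6 lists passed between double and single knockout liver. One dim probe set of Ska1, a kinetochore gene, did, with signals of 1.3 to 2.2 in single knockout and 26.4 and 68.1 in double knockout livers and a difference of 2.18 ± 0.28 (adjusted p = 0.0419).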

How the data were processed

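Liver RNA of 12 mouse samples was labelled by a one-cycle procedure and hybridised to 430A (9 arrays) or 430 2.0 (3 arrays), from 10 mg of tissue per the labels' protocols. The authors deposited linear intensity signals, 1 for each probe set on each array, and the submitters' processing notes name GCOS 1.4.0.036 and MAS5. A trimmed mean (2nd to 98th percentile) was 349 to 350 on every array, so the arrays had been scaled to a common level. Precision is limited by the number of arrays.

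Signals were taken to log2(signal + offset), the offset being the 10th percentile of signal per design (9.8 on 430A, 3.8 on 430 2.0). After 64 controls were left out, all 22626 and 45037 probe sets were tested, with no filter on low signal, because a filter could be met through the double knockout arrays alone. All 9 arrays of 430A entered 1 fit with limma 3.58.1 in R 4.3.3 (lmFit, eBayes with intensity trend), with residual and prior degrees of freedom of 6 and 4.28, or 1 and 3.62 for 430 2.0. Adjusted p-values are Benjamini-Hochberg values over all probe sets of a design. The fit was also run on simulated data with the same spread in every group. That run does not cover a group whose livers differ as double knockout livers 1 and 2 did. At most 0.407% of signals were identical in any of 36 array pairs of 430A.

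Gene symbols are those of GEO's annotation of the platforms, and 20364 and 34754 single-symbol probe sets were matched by Entrez identifier to the RefSeq table of GRCm38.p6. Given with the signal in each array were, per role, the brightest member and those with the largest and smallest difference between double and single knockout, every member that passed in single knockout against normal liver, and every member whose probe sets disagreed in double knockout against normal liver. Of each other list the 2 largest and the 1 smallest of these differences were named, and Ska1 and the members given by a difference alone were named after their values were seen. The members and lists were chosen with earlier results of these data known. Alternatives were filters on low signal, other offsets, quantile and median scaling, limma without trend or robust, means over probe sets, fits of only 2 groups, other control sets, a replicate block and leaving out each array. Plots used matplotlib 3.10.9 (Python 3.11.15).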

Additional observations from a re-analysis of the deposited data

Results flagged for a closer look

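One result stands out by the test of double against single knockout liver, all off NTBC. The normal livers are shared by both genotypes, so a larger response to withdrawal and a genotype difference present on NTBC cannot be told apart by it. Cdk1 was higher in double than in single knockout liver, by 3.81 on the log2 scale (SE 0.48, adjusted p = 0.0419 by limma with Benjamini-Hochberg adjustment). The call was lost without single knockout liver 1, 2 or 3 (adjusted p = 0.0951, 0.111 and 0.120), without double knockout liver 2 (0.193), with no offset (0.0554), with no trend (0.0509), with only the 2 groups compared (0.275) and with the replicate block (0.271), all by limma. Cdk1 signal was higher in both double knockout livers than in all 3 single knockout livers. None of the 24 members given by array had a normal liver far from the other 3 by Dixon's ratio, tested on the log2(signal + offset) scale at its 95% critical value for 4 samples. On the linear signals, a scale added after the data were seen, 1 of the 24 did, Nusap1, with 107.1 in normal liver 4 against 54.7 to 62.1 in the other 3 and a gap of 0.859 of the range; chance gives such a value in about 1 of 20 groups.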

How the results depend on the processing

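None of the differences of named members recomputed under the alternatives changed direction; these are the differences that passed, and 6 members between double and single knockout liver, so single knockout differences near 0, such as those of Bub1b and Nusap1, were not recomputed. Of these values, 646 kept their side of the threshold, 84 lost it, 4 gained it, and 42 on 430 2.0 had no test. In double knockout against normal liver on 430A, members that passed numbered 20 of the 23 tested with a filter on mean signal, which removes genes that were dim in most livers, 11 with the genotype-matched control only, and 23 to 38 when single arrays were left out (23 without double knockout liver 2, 38 without liver 1, where the lone double knockout liver left is assumed to vary like the other groups). The median member difference then ran from 1.49 to 2.93. In single knockout against normal liver the count was 3 with the genotype-matched control only. In double against single knockout liver the count was 0 with the mean filter, which removed Cdk1 itself, with no offset, with no trend and with only the 2 groups compared, 2 with the offset at the 25th percentile, with scaling to a common median and with the mean of a gene's probe sets, and 0 to 26 when single arrays were left out, with a median of 1.17 to 2.53. On 430 2.0 the count was 0 with no offset and with no trend. The median there was 3.44 with the offset at the 25th percentile, 3.67 with quantile normalization, 3.69 with scaling to a common median, 3.13 with the mean of probe sets, and 3.65 to 3.74 with one double knockout array left out, where no test remains. Apart from fewer arrays or genes, the cause of these shifts was not tested.

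Replicate numbers did not pair the arrays: the correlation of deviations over the 7 pairs with the same number ran from -0.209 to 0.058, and 0 exceeded 0.1. With the replicate block, members higher numbered 5 in single knockout, 29 in double knockout and 0 between them, with median differences of 0.30, 2.41 and 1.84.

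Scaling moved the split of all calls. In double knockout against normal liver on 430A, 64.2% of calls were higher, against 52.7% with quantile normalization and 41.9% with scaling to a common median, and the median over all probe sets went from 0.10 to -0.05 and -0.10. On 430 2.0 the share went from 71.4% to 59.6% with scaling to a common median, and the median over all from 0.01 to -0.10. All calls numbered 5428 in single knockout (2236 with the genotype-matched control), 4275 in double knockout (1417 with that control, 2390 without either double knockout array) and 8 between them (0 to 151). With 2 double knockout arrays a design, dim members whose signals lie near the offset are the least certain.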
